A study of Mus musculus with 6 samples.

Results

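The clustered histone genes were compared between 3 arrays of fetal and 3 arrays of adult basal mouse mammary cells. A gene was a member when its older symbol began with Hist1h, Hist2h, Hist3h or Hist4h, the names of the 4 groups in which these genes lie. The scanner tables used here gave an accession for each probe and no gene symbol, so the accessions were matched to RefSeq genes and the symbols, current and older, were read there. In this way 52 probes for 47 histone genes were found among the 20656 genes with a matched probe. The other 23 of the 70 such genes listed by RefSeq had no matched probe. By type the members were 6 genes for H1, 14 for H2A, 11 for H2B, 7 for H3 and 9 for H4. By location they were 36 Hist1, 8 Hist2, 2 Hist3 and 1 Hist4 genes. Current symbols are used below, with the older symbol beside the first mention.

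All cells were from the mammary glands of female C57Bl6J mice and were profiled freshly after sorting by flow cytometry, with no culture, allele or agent in either group. The fetal cells were taken at embryonic day 18.5 and sorted as CD31-CD45-Ter119-EpCAM++CD49f+. The adult basal cells came from mice aged 8 to 12 weeks and were sorted by the same depletion of CD31, CD45 and Ter119 cells, with BP-1 as a further depletion marker, as EpCAM+CD49f+ cells. The labels call the 3 samples of each group biological replicates and do not say how many animals were pooled. Adult glands were digested overnight and fetal glands for a shorter time, so digestion and age cannot be told apart. Each array held 59305 non-control spots, of which none was saturated, and 76.4% to 83.3% of the 55681 probes on an array were well above background.

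Core histones H2A, H2B, H3 and H4 form the protein spool around which DNA is wound, and linker H1 binds where the DNA enters and leaves it. Most of the clustered genes are replication-dependent: they are transcribed mostly in S phase, when new chromatin is assembled. Their mRNAs end in a stem-loop rather than a poly(A) tail. The members also include genes known from testis, which are named below. Histone variant genes outside the clusters are, by contrast, mostly transcribed through the cell cycle and polyadenylated. In mammary tissue, as elsewhere, transcripts of the replication-dependent genes are therefore used as a mark of cells that are replicating DNA. In sorted bulk RNA, fewer expressing cells and less RNA per cell cannot be told apart.

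Of the 52 probes, 50 passed the filter on low signal, and 29 of these, for 27 genes, were called higher in fetal cells: their limma p after Holm adjustment did not exceed 0.05 and their difference reached 1 log2 unit. In this direction 5.92% of all 20442 tested probes were called. No histone probe was called higher in adult basal cells, against 5.18% of all tested probes. At an unadjusted limma p under 0.05 the number in that direction was also 0. No share of all tested probes is given at that threshold, here or for the gene lists below. With Benjamini-Hochberg in place of Holm adjustment the counts of histone probes were 40 and 0, beside 16% and 14% of all tested probes. The median histone difference, fetal minus adult basal on the log2 scale, was 3.01, and over all tested probes it was -0.03. On 42 of the 50 probes every fetal array lay above every adult basal array, which 34.1% of all tested probes did, and on 0 histone probes was it the other way round, as on 35% of all tested probes. The other 8 histone probes had overlapping arrays. Of the 50 probes, 4 (H2ac8, H2ac21, H3c1 and H3c8) passed the filter through the fetal group alone, their adult basal mean lying under the limit, so that their difference was partly set by the filter. Of the other 46 probes 26 were called, and their median difference was 2.88.

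**Figure D1:**
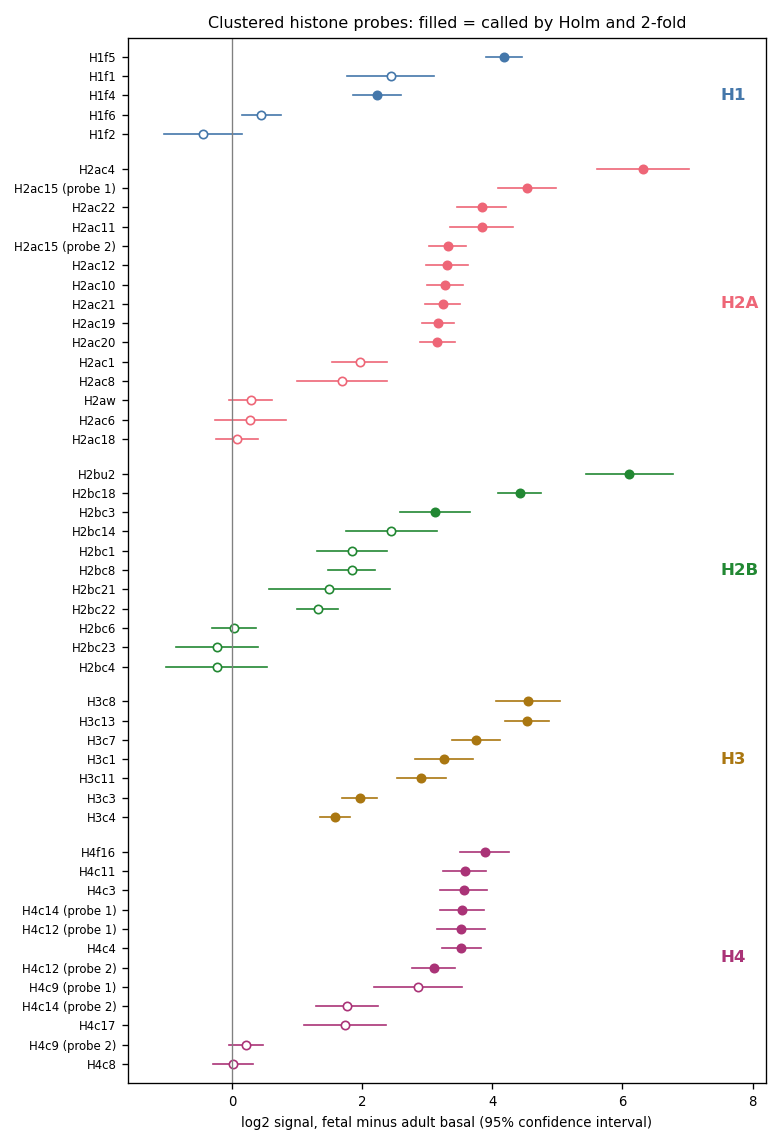
Log2 signal of fetal minus adult basal cells (x axis) for the 50 tested clustered histone probes, grouped by histone type, with the 95% confidence interval of the limma fit as a line; filled points were called. All 7 H3 probes are filled, whereas 3 of 11 H2B probes are, and the points reach from -0.45 to 6.32. With Benjamini-Hochberg adjustment the calls number 7 in H3 and 8 in H2B.

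Promoters of 4 members are shown because they belong to a called and an uncalled member of the same type: H1f5 (Hist1h1b) and H1f2 (Hist1h1c) among the linker histones, and H2ac4 (Hist1h2ab) and H2ac6 (Hist1h2ac) among H2A. Each is a RefSeq window in build GRCm38.p6 of 250 bases before to 50 bases after the annotated start, written 5′ to 3′ on the strand of the gene. Capitals mark 4 motifs on either strand: the TATA box (TATAAA), the CCAAT box (CCAAT), the octamer known from H2B promoters (ATTTGCAT) and the H1 box known from H1 promoters (AAACACA). No motif contains another. The windows are chr13:21780576-21780875 on the minus strand for H1f5, chr13:23738557-23738856 on the plus strand for H1f2, chr13:23750838-23751137 on the plus strand for H2ac4 and chr13:23683910-23684209 on the minus strand for H2ac6.
H1f5: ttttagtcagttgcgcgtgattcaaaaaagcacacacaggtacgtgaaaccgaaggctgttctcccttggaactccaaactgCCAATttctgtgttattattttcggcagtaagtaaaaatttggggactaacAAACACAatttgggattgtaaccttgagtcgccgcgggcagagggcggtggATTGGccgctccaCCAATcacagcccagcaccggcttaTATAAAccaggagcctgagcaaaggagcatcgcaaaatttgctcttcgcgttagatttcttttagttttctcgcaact
H1f2: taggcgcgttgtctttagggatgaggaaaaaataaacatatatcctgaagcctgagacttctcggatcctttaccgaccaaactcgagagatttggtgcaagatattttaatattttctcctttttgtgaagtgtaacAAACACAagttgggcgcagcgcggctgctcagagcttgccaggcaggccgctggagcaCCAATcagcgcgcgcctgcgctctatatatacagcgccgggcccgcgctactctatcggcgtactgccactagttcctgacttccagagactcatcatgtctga
H2ac4: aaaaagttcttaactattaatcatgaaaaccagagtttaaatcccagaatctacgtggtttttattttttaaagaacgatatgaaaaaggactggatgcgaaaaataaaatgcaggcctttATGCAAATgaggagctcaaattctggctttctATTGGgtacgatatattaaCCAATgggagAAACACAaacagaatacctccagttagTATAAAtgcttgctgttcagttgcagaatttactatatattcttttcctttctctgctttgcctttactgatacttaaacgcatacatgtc
H2ac6: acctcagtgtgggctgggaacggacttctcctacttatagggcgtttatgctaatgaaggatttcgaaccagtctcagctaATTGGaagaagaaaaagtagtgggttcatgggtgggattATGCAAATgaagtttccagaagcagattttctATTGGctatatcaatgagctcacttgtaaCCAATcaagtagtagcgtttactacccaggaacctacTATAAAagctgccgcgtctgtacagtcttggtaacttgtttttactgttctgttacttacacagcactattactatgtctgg

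The window of H1f5 held a TATA box in these letters and that of H1f2 did not, while both held the H1 box. The windows of H2ac4 and H2ac6 both held the octamer, the TATA box and the CCAAT box, and that of H2ac4 also held the H1 box, which that of H2ac6 did not. RefSeq gave 63 such windows for 62 of the 70 clustered histone genes, and 54 of them (85.7%) held a CCAAT box, against 37.4% of the 32851 windows of all genes. The CCAAT box was in all 6 H1, 18 H2A, 17 H2B and 10 H3 windows and in 3 of the 12 H4 windows. The TATA box was in 35 histone windows (55.6%), against 13.6% of all windows. The octamer was in 7 H2A, 7 H2B and no H1, H3 or H4 windows, together 22.2%, against 1.74% of all windows. The H1 box was in 5 of the 6 H1 windows and in 14.3% of the histone windows, against 7.18% of all. Windows of several neighbouring H2A and H2B genes overlap, so that a motif between them was counted for both genes.

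Within H2A, the 7 tested genes whose window held the octamer had differences from 0.28 to 6.32, with a median of 1.96. The 7 H2A genes without it lay between 0.08 and 3.92, with a median of 3.28. The highest of these is H2ac15, whose probes were averaged here. In H2B, 6 genes with the octamer had a median difference of 2.15 and 3 genes without it had a median of 1.32. H2bc6 (Hist1h2be) had a window with the octamer and another without it, and was counted as having it. The ranges overlapped in both types. Over all types, the 25 tested genes whose window held the TATA box had a median difference of 2.91. The 16 genes without it had a median of 2.81. These are descriptions of letters in a window, and no test was made.

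Among the linker histones some members were called higher in fetal cells and others were not called. H1f5, a replication-dependent H1, gave normalized log2 signals of 13.49, 13.38 and 13.48 in fetal cells and 9.16, 9.47 and 9.20 in adult basal cells. The groups did not overlap, and the difference was 4.18 ± 0.12 (SE of the fit, n = 3 and 3, adjusted p = 4.78e-05), or 18.1-fold. H1f4 (Hist1h1e), whose probe was the brightest of this type by its mean over all 6 arrays (the sense of brightest throughout), stood at 14.82, 15.05 and 15.26 in fetal and 12.59, 12.88 and 12.98 in adult basal cells, a difference of 2.22 ± 0.16 (adjusted p = 0.0302). This call was lost when any single array was left out, with adjusted p-values from 0.11 to 0.417, while the difference stayed between 2.11 and 2.34. It was also lost with the slide as a block (adjusted p = 0.0986).

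H1f1 (Hist1h1a) was at 11.24, 11.29 and 11.70 in fetal and at 8.56, 9.63 and 8.71 in adult basal cells. Its difference of 2.44 ± 0.29 did not pass the Holm adjustment (adjusted p = 0.807), and adult basal sample 2 was the highest of its group. Without that sample the difference was 2.77, with an adjusted p of 0.0189. H1f6 (Hist1h1t), the linker histone known from testis, differed by 0.45 ± 0.13 (95% interval 0.15 to 0.75, adjusted p = 1). All its fetal arrays lay above all its adult basal arrays. H1f2 gave 12.68, 13.25 and 13.06 in fetal and 12.94, 13.88 and 13.52 in adult basal cells. The groups overlapped, and the difference of -0.45 had a 95% interval from -1.05 to 0.15. The sole probe of H1f3 (Hist1h1d) was well above background on no fetal array and on 2 adult basal arrays, and it was not tested. Of the H1 probes, 2 of the 5 tested were thus called, and the median difference was 2.22.

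Of the 15 H2A probes, all were tested and 10 were called higher in fetal cells, with a median difference of 3.24. H2ac4 was the member with the largest difference, at 16.26, 16.13 and 16.37 in fetal and 9.18, 10.37 and 10.24 in adult basal cells. All fetal arrays were far above the adult ones, by 6.32 ± 0.30 (adjusted p = 0.00204), or 80.0-fold. Adult basal sample 1 was the lowest for this gene, and without it the difference was 5.94. H2ac15 (Hist1h2ak) had a pair of probes that were both called, with differences of 4.53 ± 0.19 (adjusted p = 0.000786) and 3.31 ± 0.12 (adjusted p = 0.000333).

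The other called H2A genes moved by similar amounts. H2ac22 (Hist1h2an) was higher by 3.84 and H2ac11 (Hist1h2ag) by 3.83, the latter with a call that was lost when any single fetal array was left out (adjusted p from 0.0716 to 0.101). H2ac12 (Hist1h2ah), the brightest probe of this type, differed by 3.31 and H2ac10 (Hist1h2af) by 3.28. From the Hist2 group, H2ac19 (Hist2h2aa2) differed by 3.16, H2ac20 (Hist2h2ac) by 3.15 and H2ac21 (Hist2h2ab) by 3.24. The H2ac21 probe was well above background on all 3 fetal arrays but on 1 adult basal array, so its adult level rests on dim spots and the difference was 2.44 with 16 added to the signal. Adjusted p-values of these 7 genes ran from 0.000158 to 0.00486.

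The 5 H2A probes that were not called fell into 2 sets. H2ac1 (Hist1h2aa), the gene of the testis H2A, differed by 1.96 ± 0.18 (adjusted p = 0.178), and H2ac8 (Hist1h2ae) by 1.69 ± 0.29 (adjusted p = 1), both with all fetal arrays above all adult ones. Near 0 were H2aw (Hist3h2a) at 0.28, H2ac6 at 0.28 and H2ac18 (Hist2h2aa1) at 0.08, all with overlapping groups. For H2ac6 the signals were 6.18, 6.99 and 6.58 in fetal and 5.98, 6.53 and 6.41 in adult basal cells. For H2ac18 they were 10.44, 10.69 and 10.72 in fetal and 10.53, 10.72 and 10.37 in adult basal cells, and the 95% interval of the difference was -0.24 to 0.39. H2ac18 and H2ac19 lie close together on chromosome 3 and encode the same protein, but their probes gave intervals that did not meet, since that of H2ac19 was 2.92 to 3.41.

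**Figure D2:**
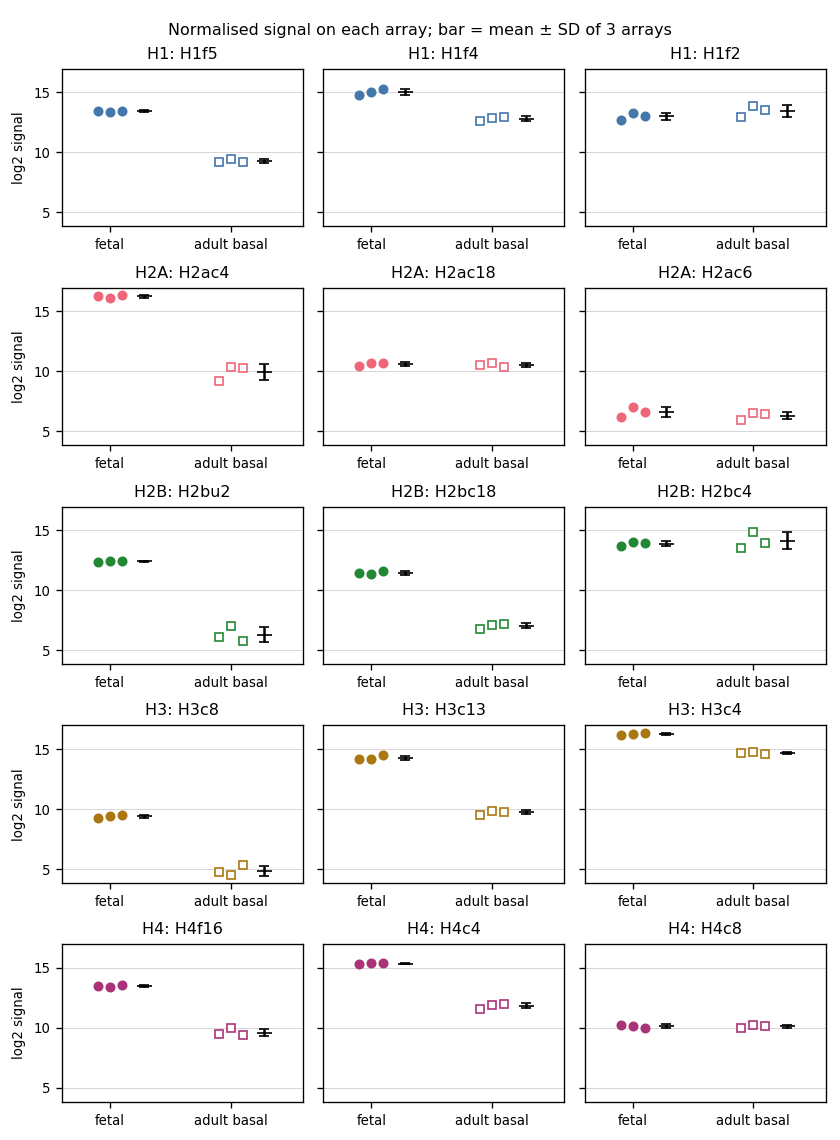
Normalized log2 signal (y axis) on each of the 3 fetal (filled circles) and 3 adult basal (open squares) arrays for 15 histone genes, 3 of each type, with the mean ± SD beside the points. In H2ac4 and H2bu2 the fetal arrays sit 6.32 and 6.11 log2 units above the adult basal arrays, while in H1f2, H2ac18, H2ac6, H2bc4 and H4c8 the groups overlap. Levels of different genes come from different probes and are not to be compared.

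Of the 11 H2B probes 3 were called, and the median difference was 1.84. H2bu2 (Hist3h2ba) gave 12.31, 12.45 and 12.43 in fetal and 6.14, 6.98 and 5.76 in adult basal cells, a difference of 6.11 ± 0.29 (adjusted p = 0.0018), or 68.9-fold. With the normexp background correction the fold was 37.1. H2bc18 (Hist2h2bb) stood at 11.41, 11.32 and 11.62 against 6.81, 7.08 and 7.20, a difference of 4.42 ± 0.14 (adjusted p = 0.000117), or 21.4-fold, and 14.0-fold with normexp. Neither gene had overlapping groups. H2bc3 (Hist1h2bb) was higher by 3.12 ± 0.23 (adjusted p = 0.042), and its call was lost when fetal sample 1 or 2 or any adult basal sample was left out, with adjusted p-values from 0.132 to 0.414, and with the slide as a block (adjusted p = 0.0957).

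A further 5 H2B genes lay between 1.32 and 2.45 with fetal arrays above adult arrays throughout and passed the Benjamini-Hochberg but not the Holm adjustment. These were H2bc14 (Hist1h2bm) at 2.45, the testis H2B gene H2bc1 (Hist1h2ba) at 1.84, H2bc8 (Hist1h2bg) at 1.84, H2bc21 (Hist2h2be) at 1.5 and H2bc22 (Hist1h2bp) at 1.32. For H2bc1 the signals were 14.48, 14.56 and 14.67 in fetal and 12.28, 13.24 and 12.67 in adult basal cells. The adult basal samples of H2bc21 were the most spread among the tested histone probes, at 6.82, 5.39 and 7.03. Its difference lay between 0.99 and 1.80 with a sample left out, and was 1.05 within slide 1 and 2.48 within slide 2. The last 3 genes had overlapping groups: H2bc6 (Hist1h2be) differed by 0.03, H2bc23 (Hist1h2bq) by -0.23 and H2bc4 (Hist1h2bc) by -0.24. The H2bc23 probe was dim, with means of 5.98 in fetal and 6.22 in adult basal cells. It was not tested with normexp or with 16 added. H2bc4, the brightest H2B probe over all 6 arrays though not over the fetal ones, was at 13.64, 14.03 and 13.95 in fetal and 13.50, 14.88 and 13.97 in adult basal cells, with a 95% interval of the difference from -1.01 to 0.53.

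All 7 H3 probes were called, with a median difference of 3.26, and the 5 that did not pass through the fetal group alone had a median of 2.91. H3c8 (Hist1h3g) gave 9.29, 9.41 and 9.53 in fetal and 4.72, 4.52 and 5.33 in adult basal cells, a difference of 4.55 ± 0.21 (adjusted p = 0.00158), or 23.5-fold. Its adult signal was dim, and the fold was 8.12 with normexp and 15.4 with 16 added. H3c13 (Hist2h3b) gave 14.18, 14.14 and 14.48 against 9.53, 9.88 and 9.79, a difference of 4.53 ± 0.14 (adjusted p = 0.000111). No fetal array of either gene came near an adult one. Next were H3c7 (Hist1h3f) at 3.75, H3c1 (Hist1h3a) at 3.26 and H3c11 (Hist1h3i) at 2.91, with adjusted p-values of 0.000871, 0.00807 and 0.0054. For H3c1, also dim in adult basal cells, the difference was 1.99 with normexp.

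The smallest H3 differences were those of H3c3 (Hist1h3c), 1.96 ± 0.12 (adjusted p = 0.00958), and H3c4 (Hist1h3d), 1.58 ± 0.10 (adjusted p = 0.0152). H3c4, the brightest H3 probe, was at 16.19, 16.23 and 16.32 in fetal and 14.65, 14.76 and 14.58 in adult basal cells, so the groups were apart although the fold was 3.00. The calls of H3c1, H3c3, H3c4 and H3c11 were each lost in several of the fits that left out a single array. Without fetal sample 1 all 4 were lost, with adjusted p-values of 0.14, 0.189, 0.225 and 0.109 and differences of 3.29, 1.95, 1.61 and 2.92. With the slide as a block H3c3 and H3c4 were not called either (adjusted p = 0.0677 and 0.0801).

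In H4, 7 of the 12 tested probes were called and the median difference was 3.31. H4f16 (Hist4h4), the gene outside the 3 larger groups, was at 13.49, 13.45 and 13.55 in fetal and 9.51, 9.96 and 9.37 in adult basal cells, a difference of 3.89 ± 0.16 (adjusted p = 0.000763). The other probe of this gene was well above background on 1 array in all and was not tested. The next 5 genes were close to each other: H4c11 (Hist1h4j) differed by 3.57, H4c3 (Hist1h4c) by 3.56, H4c14 (Hist2h4) by 3.53, H4c12 (Hist1h4k) by 3.52 and 3.10 on its pair of probes and H4c4 (Hist1h4d) by 3.52. H4c4 gave 15.33, 15.37 and 15.37 in fetal and 11.60, 11.91 and 12.00 in adult basal cells. A probe of H4c12 was the brightest of the type, and all probes of these 5 genes that were called had adjusted p-values between 0.0003 and 0.00137.

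The remaining H4 probes did not pass. H4c17 (Hist1h4m) differed by 1.73 ± 0.27 (adjusted p = 1). H4c8 (Hist1h4h) gave 10.28, 10.18 and 9.97 in fetal and 9.96, 10.25 and 10.16 in adult basal cells, with a difference of 0.02 and a 95% interval from -0.29 to 0.32. In H4c14 and H4c9 (Hist1h4i) the probes of a gene disagreed. The second H4c14 probe differed by 1.76 (95% interval 1.28 to 2.24, adjusted p = 0.744), below the interval of the first, 3.19 to 3.87. For H4c9 the probes differed by 2.85 (2.18 to 3.53, adjusted p = 0.305) and 0.22 (-0.04 to 0.48, adjusted p = 1). Many clustered histone genes are near-identical in their coding part, so a probe may bind RNA of several copies. How far each probe is specific to its gene was not tested. The labels describe labelling from cDNA made for T7 polymerase and the methods a whole-transcript version of that kit, and whether the priming caught mRNAs without a poly(A) tail equally in both groups was not tested.

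The spread within a group was larger among adult basal than fetal arrays. The SD of a histone probe had a median of 0.12 over the fetal and 0.26 over the adult basal samples, against 0.12 and 0.18 over all tested probes. By type, the median over the adult basal samples was 0.44 in H2B and 0.20 to 0.26 in the other types. Adult basal sample 1 was the lowest of its group for 39 of the 50 histone probes, and adult basal sample 2 was the highest for 31. Among the fetal arrays, sample 3 was the highest for 37 probes and sample 1 the lowest for 27. The median histone signal was 9.34, 9.92 and 9.64 on adult basal arrays 1 to 3 and 12.32, 12.42 and 12.45 on fetal arrays 1 to 3. All fetal medians were therefore above all adult ones. The arrays came from 2 slides, each of which held both groups, and the median difference was 2.89 within slide 1 and 2.91 within slide 2. Fetal sample 1 was the only fetal array on slide 1, and adult basal sample 2 the only adult basal array on slide 2. Each difference within a slide thus rests on a single array in a group.

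By location, 21 of 38 tested Hist1 probes, 6 of 9 Hist2 probes, 1 of 2 Hist3 probes and the 1 tested Hist4 probe were called. The median differences were 2.65 in Hist1 and 3.16 in Hist2. No test was made between the types or between the locations, because genes are not replicates of a condition.

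H2A and H2B genes often lie head to head, with a shared stretch of promoter between them. RefSeq listed 14 neighbouring H2A and H2B pairs less than 500 bases apart, and both genes were tested in 5 of them. H2ac8 and H2bc8 differed by 1.69 and 1.84 between fetal and adult basal cells, H2ac1 and H2bc1 by 1.96 and 1.84, and H2ac6 and H2bc4 by 0.28 and -0.24. The members of these 3 pairs were thus within 0.52 of each other. In the other pairs the H2A gene had the larger value: 3.84 for H2ac22 beside 1.32 for H2bc22, and 3.15 for H2ac20 beside 1.5 for H2bc21. Several of these probes were dim. H2ac8 passed the filter through the fetal group alone, and neither H2ac8 nor H2ac6 was tested with normexp or with 16 added. H2bc22 and H2bc21 had adult basal means of 6.04 and 6.42 and were not tested with normexp. How far dim signal set these values, and the differences between the members of a pair, were not tested.

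**Figure D3:**
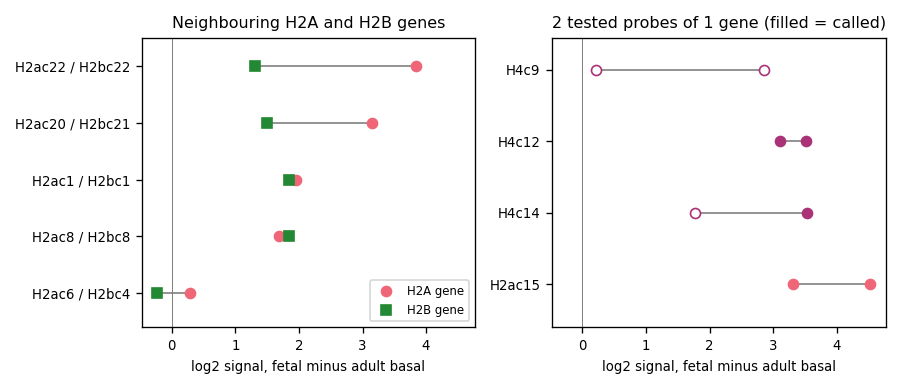
Log2 signal of fetal minus adult basal cells (x axis) for the H2A (circle) and H2B (square) members of the 5 tested neighbouring pairs (left) and for the genes with 2 tested probes (right; filled points were called). The largest gap is 2.52 among the neighbours, for H2ac22 and H2bc22, and on the right H4c9 spans 0.22 to 2.85.

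Histone variant genes outside the clusters were the first of the lists set beside the members, and 6 of 11 were called higher in fetal cells, with a median difference of 1.74. The number higher in adult basal cells was 0, also at an unadjusted limma p under 0.05, for which no share of all tested probes is given. For a gene with several tested probes the brightest was taken. Cenpa, the centromeric H3, differed by 4.72 (adjusted p = 0.000308), H2aj by 2.93 and H1f10 by 2.80. H2ax, the H2A phosphorylated at DNA breaks, differed by 2.63, the linker H1f0 by 1.77 and H2az1 by 1.74. H2az1 and H2aj had the brightest probes of the list. The other H2aj probe differed by 0.53 and was not called. Of the 3 probes of Macroh2a1, a macroH2A gene, the brightest differed by 1.04 and was not called, and the dimmest was called higher in adult basal cells (-1.88, adjusted p = 0.0176). The replacement H3 genes H3f3a and H3f3b, at 0.88 and 0.84, were not called. This count was 3 with the replicate number as a block, 3 without fetal sample 1 and 3 without adult basal sample 3.

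Of 17 genes for the transcription and 3′ end processing of histone mRNAs, 15 were tested and 2 were called higher in fetal cells, with a median of 0.71. Slbp, which binds the stem-loop, differed by 1.44 ± 0.10 (adjusted p = 0.0356), and Ccne1, the cyclin E that starts S phase with Cdk2, by 2.82 ± 0.12 (adjusted p = 0.000764). The brightest probes were those of Sympk, a scaffold of the cleavage complex, at 0.29 and Cpsf3, its endonuclease, at 0.84, and neither was called. The probe of Npat, the coactivator of histone genes, was well above background on 1 array and was not tested. The other Slbp probe, at 1.52, was not called, and the dimmer of the pair of Zfp473 probes was called higher in fetal cells at 2.60 (adjusted p = 0.0459) while the brighter, at 1.06, was not. Tut1, a terminal uridylyltransferase, was at -1.64 with all adult basal arrays above the fetal ones and did not pass the Holm adjustment (adjusted p = 0.361). The count of called genes fell to 1 when any single fetal sample or adult basal sample 1 was left out, and with Benjamini-Hochberg adjustment it was 5, with Tut1 as the 1 gene higher in adult basal cells.

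Among 19 genes for histone chaperones and deposition, 4 were called higher in fetal cells, with a median of 0.91. These were Asf1b, which hands on H3 and H4, at 5.17 (adjusted p = 0.000107), the chromatin assembly factor subunits Chaf1a at 4.61 (adjusted p = 0.000436) and Chaf1b at 2.31 (adjusted p = 0.00238), and Nasp, an H3 and H4 chaperone, at 1.59 (adjusted p = 0.0206). The other Chaf1b probe differed by 3.49 and the other Nasp probe by 3.38. The paralog Asf1a was at 0.81 and Hira, which deposits replacement H3, at 0.44, and neither was called. The brightest probes, those of the chaperones Npm1 and Nap1l1, differed by 0.44 and 0.91 and were not called. Of the 5 Npm1 probes the dimmest was called, at 2.55 (adjusted p = 0.00312). The count was 2 with the replicate number as a block and 8 with Benjamini-Hochberg adjustment.

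Of 22 S phase and proliferation genes, 18 were called higher in fetal cells, with a median of 3.43. The number higher in adult basal cells was 0, at an unadjusted limma p under 0.05 and by Benjamini-Hochberg adjustment too. The mitotic kinase Cdk1 differed by 6.77 and 6.17 on the called probes and by 0.96 on the dimmest probe, which was not called. Differences were also large for thymidine kinase Tk1 at 6.14, Mki67 at 5.98, the ribonucleotide reductase subunit Rrm2 at 5.96 and the replicative helicase subunit Mcm5 at 5.73. Ccnb1 was at 5.82, Top2a at 5.64, Ccna2 at 5.34, Mcm3 at 3.67, Rrm1 at 3.53, Gins1 at 3.34, Mcm4 at 3.19, Mcm6 at 3.05, Mcm2 at 2.75, Cdt1 at 2.35 and Pcna at 1.92. The Cdc6 probe was not well above background in adult basal cells (0 of 3 arrays), so that it passed the filter through the fetal group alone and its difference was partly set by it. With the processed signals it was at least 21.6-fold higher in fetal cells (adjusted p = 0.000569), while its log2 difference was 2.31 with normexp and 3.53 with 16 added. The bound sets its fetal mean against, on each adult array, the higher of its own signal and the lowest signal well above background there. The other Cdc6 probe, at 4.67, was not called (adjusted p = 0.454). Mcm7 at 1.48, Cdc45 at 1.06, Gins2 at 2.47 and Tyms at 0.10 were not called.

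None of the 10 housekeeping genes was called in either direction by limma with Holm adjustment, and their median was 0.17. With Benjamini-Hochberg adjustment, and likewise with a trended and robust eBayes fit, 1 was called higher in fetal and 0 in adult basal cells. At an unadjusted limma p under 0.05 there were 3 in each direction, with no share of all tested probes to set beside them. Actb, the brightest, differed by 0.19, Ppia by 0.77, Gapdh by -0.57 and Sdha by 1.07.

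**Figure D4:**
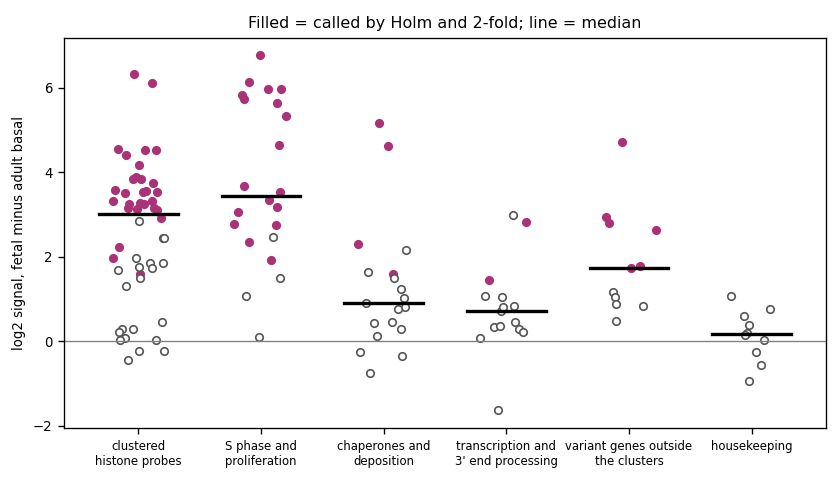
Log2 signal of fetal minus adult basal cells (y axis) for the clustered histone probes and for the tested genes of 5 lists; each point is a probe, filled points were called and the line is the median. The medians are 3.01 for the clustered histone probes, 3.43 for S phase and proliferation genes, 0.91 for chaperones, 0.71 for transcription and 3′ end processing, 1.74 for variant genes and 0.17 for housekeeping genes.

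Markers were read to check the sorted cells. Of 7 basal genes, 5 were called higher in adult basal cells: Krt5 (-3.90, fetal minus adult basal), Acta2 (-4.07), Myh11 (-8.63), Cnn1 (-6.01) and Oxtr (-3.96). Myh11 had a fetal mean of 5.72, under the limit of the filter, and was at -7.47 with normexp. Krt14 at -1.20 was not called, and adult basal sample 2, at 13.39 beside 15.25 and 15.46 in the others, lay within the fetal range. Without that sample the Krt14 difference was -1.85 (adjusted p = 0.216). The brighter Trp63 probe, at -0.08, was not called, and the dimmer was called higher in adult basal cells (-3.06, adjusted p = 0.00019). By their brightest probe all 7 genes were well above background on every array of both groups. Of 6 luminal genes, Elf5 (7.55) and Kit (4.0) were called higher in fetal cells, Elf5 having passed the filter through the fetal group alone and standing at 6.10 with normexp, while Krt8 (0.44) and Krt18 (0.58) were not called. Krt19 was at -1.22 with all adult basal arrays above, passing the Benjamini-Hochberg (adjusted p = 0.000411) but not the Holm adjustment. The brighter Prlr probe was at -0.35 and not called, and the dimmer was called higher in fetal cells (1.85, adjusted p = 0.026). The fetal and adult sorts thus differed in lineage genes as well as in histone genes, and the part of this in the histone differences was not tested.

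Probes for markers of the cells that the gates remove also gave some signal. No gene of the 5 leukocyte, 5 erythroid and 3 endothelial genes was called by Holm adjustment. With Benjamini-Hochberg adjustment 1 leukocyte and 1 endothelial gene were called higher in adult basal cells, and the counts at an unadjusted limma p under 0.05 were the same, with 0 for the erythroid genes. These were Lyz2 and Cdh5, named after their values were seen, and both passed the filter through the adult basal group alone. The summed normalized leukocyte signal, on the linear scale with 1 probe per gene, was 12386 to 16149 in fetal and 13772 to 15568 in adult basal samples, and the brightest probe was that of Csf1r. Ptprc, which encodes CD45, was well above background on all 6 arrays at means of 6.75 and 7.07. Its probe was not tested with normexp or with 16 added. The summed endothelial signal was 10719 to 12456 against 10933 to 13566, with Kdr the brightest. Of the erythroid genes 2 were tested, Hba-a1 at 0.47 and Slc4a1 at 0.14; the sum was 1502 to 2163 against 1277 to 2089. Of 4 fibroblast genes, Dcn was called higher in adult basal cells (-3.78), while Col1a2 (-0.90), Pdgfra (-0.37) and Col1a1 (-0.01) were not called. The fibroblast sum was 4735 to 5825 in fetal and 14186 to 23282 in adult basal samples. Col1a2 was the brightest over all 6 arrays, and Dcn was brighter than it on the adult basal arrays. Without fetal sample 1 the Dcn call was lost. Whether the signal of these markers came from such cells, and the part of such cells in the histone differences, was not tested.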

How the data were processed

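RNA from 3 fetal and 3 adult basal samples was hybridised to single-colour Agilent SurePrint G3 Mouse GE 8x60K arrays, and the authors extracted the spot signals in Agilent Feature Extraction (version 11.0.1.1). The deposited scanner tables hold the processed green signal as an intensity on a linear scale, already background-corrected by that program. The authors also deposited quantile-normalized log2 values, which were used as an alternative. Here outlier spots (104 to 326 of 59305 per array) were left out, log2 signals of the spots of a probe were averaged, and arrays were quantile normalized. Of 55681 probes, 27229 matched a RefSeq gene by accession. A probe was tested when its mean in either group passed 5.95, the limit below which k-means with 3 clusters (100 starts) put the lowest signals; 20442 probes did. Fetal and adult basal samples were compared with lmFit and eBayes in limma 3.58.1 (R 4.3.3), and a probe was called when its p after Holm adjustment did not exceed 0.05 and its difference reached 1 log2 unit. Tables, medians and motif searches were made with Python 3.11.15, pandas 2.3.3 and numpy 2.4.6. The fit was tested on simulated data of 20442 probes with 200 changed, of which Holm adjustment recovered 129 with 0 false calls. The number of arrays limits the precision, and with 3 against 3 samples the p-values rest on the variance that limma shares over probes.

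The members, gene lists and rules were chosen with earlier results of these data known. The named genes were every called member, the brightest probe and the largest differences of each type, the testis genes, and for each list its called genes and its 2 brightest, except that a few list genes are not reported here by name. Positions in the array tables are in build mm9 and were not used. Promoter windows are from RefSeq in GRCm38.p6. Alternatives covered scaling, background correction, an added 16 before log2, the low-signal filter, the probes tested, eBayes with trend and robust, slide and replicate blocks, values within a slide, leaving out each sample, Benjamini-Hochberg adjustment and 1 value per gene.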

Additional observations from a re-analysis of the deposited data

How the results depend on the processing

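The count of histone probes called higher in fetal cells was 29 and lay between 22 and 40 over 17 alternatives with a test. It was 29 with 75th percentile scaling and with the deposited normalized values, 31 with normexp (offset 50), 31 with 16 added before log2, 31 with a trended and robust eBayes fit, 28 with the filter on signal well above background, 27 with all non-control probes and 22 with no low-signal filter. It was 25 with the slide as a block and 26 with the replicate number as a block. Without fetal samples 1, 2 and 3 it was 22, 23 and 23, and without adult basal samples 1, 2 and 3 it was 24, 29 and 25. The count higher in adult basal cells was 0 under all of these, samples left out included. The number of probes tested was not the same in all settings. The main fit tested 50 histone probes among 20442. Normexp tested 44 among 15734, the added 16 tested 47 among 17885 and the fit with no low-signal filter 52 among 27229. Of the 29 called probes, 22 were called under every alternative in which they were tested. The other 7, for H1f4, H2ac11, H2bc3, H3c1, H3c3, H3c4 and H3c11, lost the call under at least 4 alternatives, and none of the 29 changed sign. The median histone difference of 3.01 lay between 2.78 and 3.14. It was 2.78 when the probes of a gene were averaged, which moved it by more than the SD of 0.21 between replicate medians, and 2.84 to 3.14 with a sample left out. The median of the H1 probes was 1.34 with no low-signal filter, which adds the dim H1f3 probe, and that of the H3 probes was 2.36 with normexp. Of the 29 called probes 5 moved by over 1.5-fold with normexp or with 16 added: H2ac21, H2bu2, H2bc18, H3c1 and H3c8. Among the listed genes, normexp gave 2.09 for H1f10, 4.45 for Asf1b, 3.91 for Chaf1a, 4.78 for Top2a, 5.12 for Ccnb1 and 5.91 for Cdk1.

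The sign turned for 5 probes near 0, none of them called, including H2ac6 (0.28), which was at -0.01 within slide 1 and positive elsewhere. H2ac18 (0.08) was at -0.0143 with the slide block and between -0.00872 and 0.168 with a sample left out, the lowest without adult basal sample 3. H2bc6 (0.03) was at -0.0548 with the slide block and between -0.0638 (without adult basal sample 3) and 0.173 with a sample left out. H2bc4 (-0.24) lay between -0.546 and 0.143 with a sample left out, the highest without adult basal sample 2, and was at -0.88 within slide 2. With a sample left out H4c8 (0.02) lay between -0.0668 (without adult basal sample 1) and 0.103. Within slide 2, H2ac18, H2bc6 and H4c8 were at -0.02, -0.24 and -0.18, and within slide 1 H2ac18 was at -0.01. Samples with the same replicate number deviated together with correlations of -0.03, 0.09 and 0.05, so the numbers were not taken as pairs. With that block H3c1, H3c3 and H3c4 lost the call, and with the slide block H1f4, H2bc3, H3c3 and H3c4 did. Without the 4 probes that passed the filter through the fetal group alone, a choice made after seeing the data, the count was 26 and the median 2.88.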
